A study of Homo sapiens with 18 samples.

Results

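The genes of human chromosome 8 were followed in order along the chromosome in 3 pairs of ovarian cancer cell lines, each made of a platinum-sensitive and a platinum-resistant line. Members were all genes placed on chromosome 8 in the deposited expression table, other than symbols starting with ZNF, COL, MRPL, MRPS, RPL, RPS, NDUF, DNAJ, ATP5 or UQCR and the genes SQLE, FDFT1 and CTSB. This gave 436 of the 470 chromosome 8 genes and of the 12853 genes in all. They were ordered by the start site (TSS) given in the table and split at 45 Mb of hg19 into 152 genes of the short arm, 8p, and 284 genes of the long arm, 8q. HGSNAT, which acetylates heparan sulfate in lysosomes, was the last gene before the split, and SPIDR, a scaffold of homologous recombination, was the first gene after it. The log2 fold changes (log2FC, resistant minus sensitive) of HGSNAT were 1.88, 1.06 and 0.31 in the A2780, PEA and PEO pairs, and those of SPIDR were -0.10, -0.57 and 0.33.

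The A2780 pair compares A2780 with CP70, a platinum-resistant line selected from A2780 in culture. Both are labelled as endometrial/ovarian cancer cells. The PEA pair compares PEA1 with PEA2, and the PEO pair compares PEO1 with PEO4, in each case lines from 1 patient with high-grade serous ovarian cancer taken before and after platinum resistance arose in the clinic. All 6 lines were grown in RPMI-1640 with glutamine and fetal bovine serum, and none of the RNA samples is labelled with a drug treatment. Each line had 3 libraries of total RNA depleted of ribosomal RNA. Each pair stands for 1 patient or 1 selected line, and the sources used here do not say whether the replicates came from separate cultures, so p-values measure only the spread between libraries.

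Chromosome 8 is among the chromosomes most often altered in high-grade serous carcinoma, in which distal 8p is often lost and distal 8q, with the MYC oncogene, is often gained. A change in the number of copies of a segment tends to alter the RNA of many unrelated genes along it together. Regulation by a single promoter or enhancer often alters single genes or small clusters. Neither DNA copy number nor chromatin was analysed here, and the part of either in any shift below was not tested.

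The libraries held 1344098 to 7067336 reads on the listed genes, so that 3 reads stood for 0.452 to 2.18 CPM (counts scaled to the same library total). PEA1 was the shallowest line, with at most 1670866 reads. Of 8 markers of ovarian carcinoma and epithelium (PAX8, WT1, EPCAM, KRT8, KRT18, MUC16, MSLN and CDH1), all 8 were above 3 reads in every library of PEO1, PEO4 and PEA2, 5 in PEA1, 3 in CP70 and 0 in A2780. MUC16, MSLN and CDH1 were not above 3 reads in every PEA1 library, and the summed level of the 8 genes was 430 to 587 CPM in PEA1 and 2588 to 2865 in PEA2. PTPRC, a leukocyte marker, and CDH5, an endothelial cadherin, were read in every PEA2 library, at 20.1 to 25.1 and 25.3 to 36.1 CPM, and in no other line were they above 3 reads throughout. Only 1 of 4 listed leukocyte markers and 1 of 3 endothelial markers were among the deposited genes. CD3E, CD14, CD79A, PECAM1 and VWF were not, so each cell type rests on a single gene. The part of PTPRC and CDH5, and that of the epithelial markers, in the values of the PEA pair was not tested.

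A gene rose or fell where its FDR was below 0.05 in limma (Benjamini-Hochberg over 12853 genes), and it was called where its log2FC was also above 2 in either direction. In the A2780 pair 48 of the 436 members were called, against 9.06% of all genes. In the PEA pair 67 were called, against 14.1% of all genes, and in the PEO pair 41, against 6.22%. These shares were 11%, 15.4% and 9.40% of the members. Of the called members, 23, 28 and 11 had at most 3 reads in every library of one line, where the fitted log2FC depends on the 0.5 reads added and a lower bound is given in its place. No member was called the same way in every pair.

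The smaller changes were unevenly spread between the arms. In the PEO pair 131 of the 284 genes of 8q rose and 22 fell, against 19.6% and 21.9% of all genes, so that 46.1% of 8q rose. In the same pair 23 of the 152 genes of 8p rose and 37 fell. In the PEA pair 80 of the 152 genes of 8p fell and 24 rose, against 29.4% and 32.5% of all genes, so that 52.6% of 8p fell. On 8q of that pair 72 rose and 103 fell. On 8p of the A2780 pair 35 genes rose and 18 fell, and 66 genes of 8q rose and 52 fell, against 22.2% and 17.7% of all genes.

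**Figure D1:**
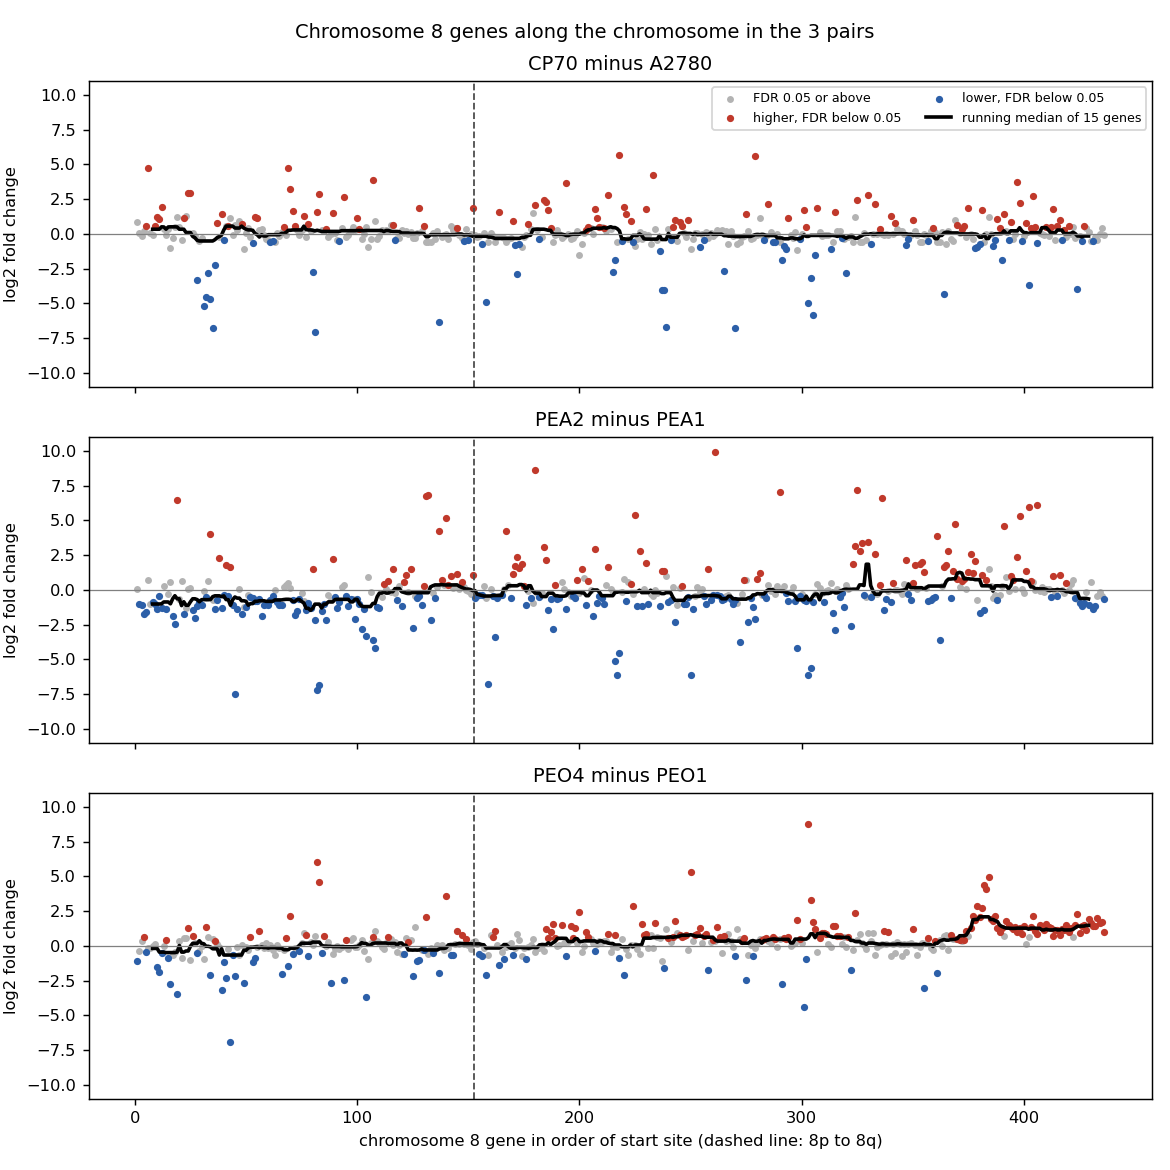
Log2 fold change of each of the 436 chromosome 8 genes (y axis, resistant minus sensitive) in order of start site (x axis, rank), 1 panel per pair, with points coloured by the limma FDR, a black running median of 15 genes and a dashed line between 8p and 8q. The running median lies below 0 over most of 8p in the PEA pair, and at the right end of 8q in the PEO pair it reaches 2.09, between AGO2 and TOP1MT.

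The arm shift, which is the median log2FC of the arm minus that of all genes, was largest for 8p of the PEA pair, at -0.63, and for 8q of the PEO pair, at 0.54. For 8q of the PEO pair, the 3 PEO1 libraries stood at -0.26, -0.28 and -0.28 and the 3 PEO4 libraries at 0.24, 0.29 and 0.24, as medians relative to all genes. These libraries did not overlap and lay close together within each line. For 8p of the PEA pair, the PEA1 libraries stood at -0.08, 0.48 and 0.44 and the PEA2 libraries at -0.34, -0.32 and -0.18. They did not overlap either, but PEA1 replicate 1 lay nearer to PEA2 than to the other PEA1 libraries. The 8q shift of the PEA pair was -0.18 with overlapping libraries, and it was -0.0032 without PEA1 replicate 2. In the PEO pair 8p shifted by -0.06. In the A2780 pair the shifts were 0.16 for 8p and -0.04 for 8q, and the 8p value was 0.062 with a mean log2 level above 4 and turned to -0.0079 when means replaced medians. The 8q value was 0.00034 with a mean log2 level above 4 and -0.085 without A2780 replicate 1 or -0.071 without CP70 replicate 2. No test was made of these medians, since neighbouring genes are not replicates.

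**Figure D2:**
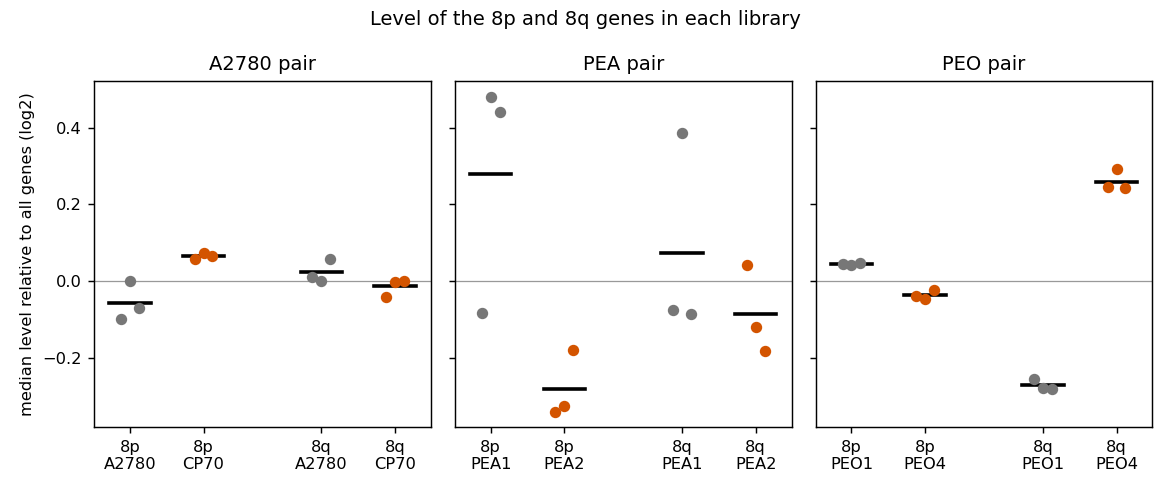
Median log2 level of the 8p and 8q genes in each library relative to all genes (y axis), for the sensitive line (grey) and the resistant line (orange) of each pair, with black bars for the mean of 3 libraries. PEO1 and PEO4 are far apart on 8q, from -0.28 to 0.29, while the 3 PEA1 libraries are spread from -0.08 to 0.48 on 8p.

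Against whole chromosomes, the chromosome 8 shift of the PEO pair was 0.30 and only 2 of 22 other chromosomes stood higher. The PEA value was -0.29, with 4 of 22 lower, and in the A2780 pair 0.02, with 8 higher and 14 lower. Windows of 10 Mb placed these shifts more closely. The last window of 8q, from 140 Mb to the end, had a shift of 1.35 in the PEO pair, and none of the 282 windows of other chromosomes with at least 8 genes stood higher, the highest being at 1.26. Of its 67 genes, 61 rose and 0 fell, so that 91% rose, against 19.6% of all genes. The PEO1 libraries stood at -0.76, -0.72 and -0.56 in it and the PEO4 libraries at 0.69, 0.60 and 0.72, so the lines were well apart.

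The rest of 8q in the PEO pair shifted less, and not evenly. The windows between 60 and 120 Mb stood at 0.41, 0.21, 0.62, 0.50, 0.51 and 0.65, with no overlap of the libraries in any of them. The window from 120 to 130 Mb, which holds MYC, stood at 0.16, with 4 of 33 genes up and 1 down. That is 12.1% and 3.03%, against 19.6% and 21.9% of all genes. The window from 130 to 140 Mb stood at 0.40, with overlapping libraries and 12 genes. The window from 50 to 60 Mb stood at -0.07, near all genes. The window from 40 to 50 Mb, in which 21 of 27 genes lie on 8p, stood at -0.12. The PEA windows from 0 to 40 Mb stood at -1.02, -0.57, -0.87 and -0.49, the window from 40 to 50 Mb at 0.18, and the window from 130 to 140 Mb at 0.80. The libraries did not overlap in the first 3 of these windows and overlapped in the others, and the last value turned to -0.14 over the 8 of its 12 genes with a mean log2 level above 4. Of the 282 other windows, 8 stood lower than -1.02 in the PEA pair, in which the other chromosomes ranged from -2.28 to 2.25. No 10 Mb window of chromosome 8 in the A2780 pair was farther from all genes than 0.42.

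**Figure D3:**
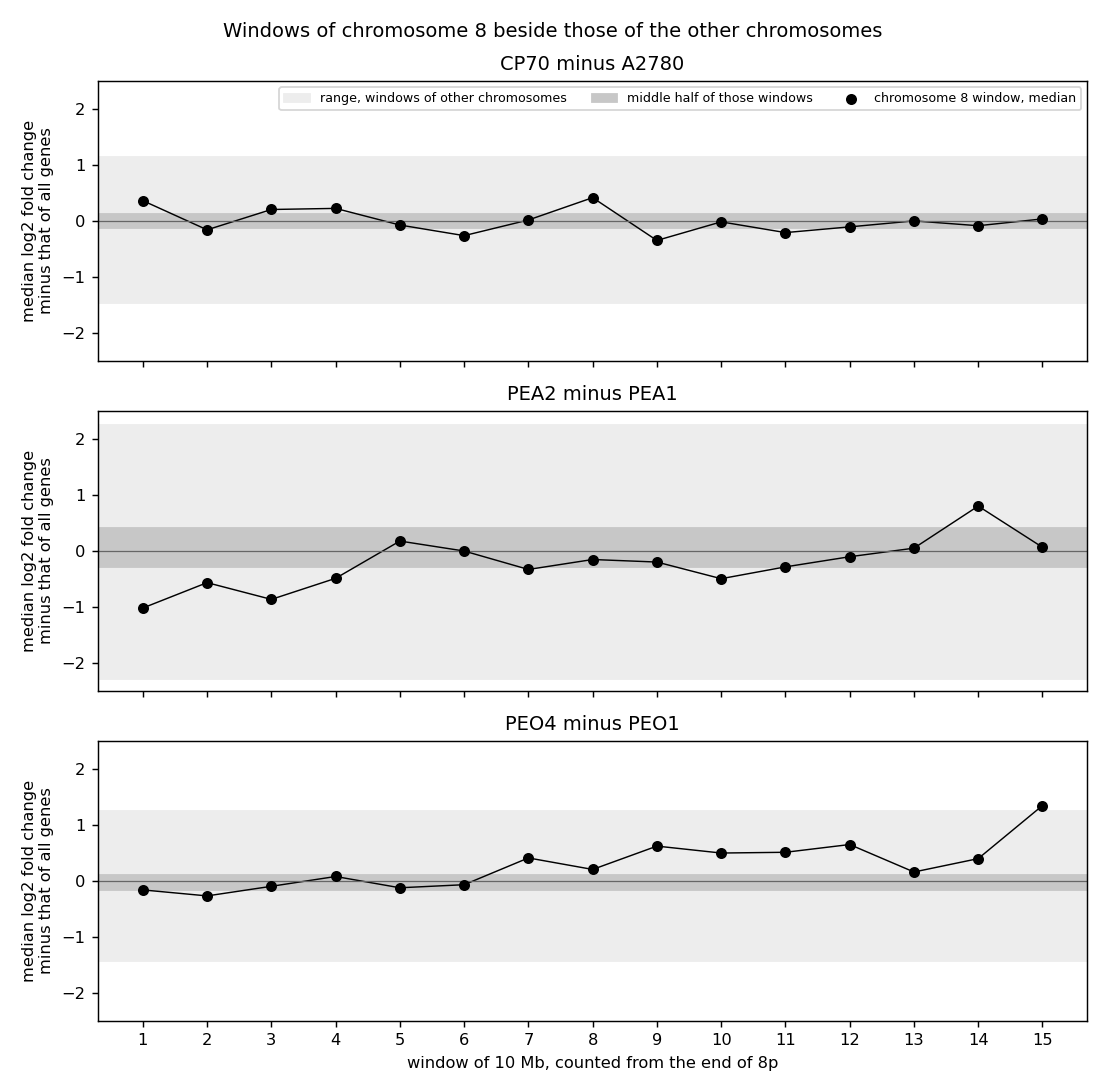
Median log2 fold change of the genes in each 10 Mb window of chromosome 8 minus that of all genes (black points, y axis) in order from the end of 8p (x axis, window number), 1 panel per pair, with the range (light grey) and middle 50% (dark grey) of the windows of other chromosomes. Window 15 of the PEO pair, at 1.35, lies above the grey range, and windows 1 to 4 of the PEA pair lie below 0 but inside it.

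At the end of 8q in PEO4 the rise was continuous from gene to gene. From ZFAT to C8orf33, the last member, 70 consecutive genes had a log2FC above 0, and 62 of them rose. Within this run the size changed at PTK2. The 7 genes from ZFAT to AGO2 had log2FCs from 0.32 to 0.78, and the 63 genes from PTK2 to the end had a median shift of 1.38, with log2FCs from 0.13 to 4.95. These boundaries were set after the values were seen. In the same 63 genes the shift was 0.02 in the A2780 pair and 0.03 in the PEA pair. It was 1.36 over the 37 of them with a mean log2 level above 4.

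AGO2, the endonuclease of microRNA-guided silencing (chr8:141530255-141645732, minus strand), had log2 levels of 6.81, 6.88 and 7.16 in PEO1 and 7.31, 7.40 and 7.34 in PEO4, a log2FC of 0.40 ± 0.12 (SE, n = 3 libraries per line, limma FDR = 0.00991). Its neighbour PTK2, which encodes focal adhesion kinase (chr8:141667999-142012315, minus strand), had 8.11, 8.24 and 8.15 in PEO1 and 9.24, 9.23 and 9.22 in PEO4. That is a log2FC of 1.06 ± 0.10 (limma FDR = 4.4e-08), and the lines did not overlap for either gene. Here a log2 level is the deposited log2 CPM with 0.5 reads added, and coordinates are GENCODE gene spans on GRCh37 (hg19).

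Beyond PTK2, a cluster of genes rose by more than the rest. PTP4A3, a protein tyrosine phosphatase linked to metastasis, went from 1.29, 1.22 and 1.76 to 3.30, 3.86 and 3.68, a log2FC of 2.19. LY6E, an interferon-inducible membrane protein (chr8:144099399-144105249, plus strand), went from 5.66, 5.96 and 6.02 to 9.94, 9.94 and 10.04. Its log2FC of 4.09 ± 0.13 (limma FDR = 2.56e-14) was a 17.1-fold rise. In the A2780 pair LY6E was at -0.04 and did not pass the test, and in the PEA pair it rose by 0.74. LY6E differed between the PEA and PEO pairs by -3.36 (limma FDR = 1.13e-11).

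LYNX1, a modulator of nicotinic acetylcholine receptors, and C8orf31 had at most 3 reads in every PEO1 library, and they were at least 15-fold and 19.1-fold higher in PEO4, against 3 reads per library. BAI1, an adhesion G protein-coupled receptor, rose by 2.87 and THEM6 by 2.72. TOP1MT, the mitochondrial topoisomerase, went from 4.37, 4.53 and 4.11 to 6.37, 6.45 and 6.60, a log2FC of 2.14. The highest running median of 15 genes on the chromosome, 2.09, fell between AGO2 and TOP1MT in this pair.

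Farther out, genes of general cell functions rose as well. PLEC, the cytoskeletal linker plectin (chr8:144989321-145050902, minus strand), held the median of the window and went from 10.68, 10.60 and 10.65 to 12.04, 11.81 and 12.08, a log2FC of 1.33 ± 0.13 (limma FDR = 7.91e-08). EEF1D, a translation elongation factor subunit, went from 7.31, 7.34 and 7.36 to 8.80, 8.73 and 8.98, a log2FC of 1.5. PUF60, a splicing factor, went from 6.49, 6.69 and 6.96 to 8.23, 8.02 and 8.17, a log2FC of 1.42. These 3 genes rose in every PEO4 library over every PEO1 library.

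CYC1, the cytochrome c1 subunit of respiratory complex III, rose by 1.12, HSF1, the heat shock transcription factor, by 1.13, DGAT1, which makes triacylglycerol, by 1.54 and CPSF1, a polyadenylation factor, by 1.48. SCRIB, a cell polarity scaffold, rose by 0.85, GSDMD, the pore-forming effector of pyroptosis, by 1.27, PARP10, a mono-ADP-ribosyltransferase, by 2.18 and SLC39A4, the intestinal zinc importer, by 2.27. TONSL, a replication fork repair scaffold, rose by 1.43 and RECQL4, a helicase, by 1.42. HSF1 and DGAT1 overlap on opposite strands, as do CPSF1 and ADCK5. FAM203A and FAM203B, near-identical copies whose reads counting could split, rose by 1.27 and 1.15.

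The 5 genes from PTK2 outward that did not pass the test were DENND3 at 0.74, MROH6 at 0.70, NRBP2 at 0.13, EPPK1 at 0.67 and ADCK5 at 0.62. CASC7, which lies before PTK2, missed it as well, at 0.32. All of these had log2FCs above 0, and only the NRBP2 libraries overlapped between the lines. Of the 27 genes measured on the list of distal 8q24.3 genes, 26 rose and 0 fell in the PEO pair, with a median log2FC of 1.36, where the median of all genes was -0.02. The share that rose was 96.3%, where 19.6% of all genes rose and 21.9% fell. Between A2780 and CP70 6 rose and 8 fell, or 22.2% and 29.6% against 22.2% and 17.7% of all genes. Between PEA1 and PEA2 6 rose and 3 fell, or 22.2% and 11.1% against 32.5% and 29.4%.

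**Figure D4:**
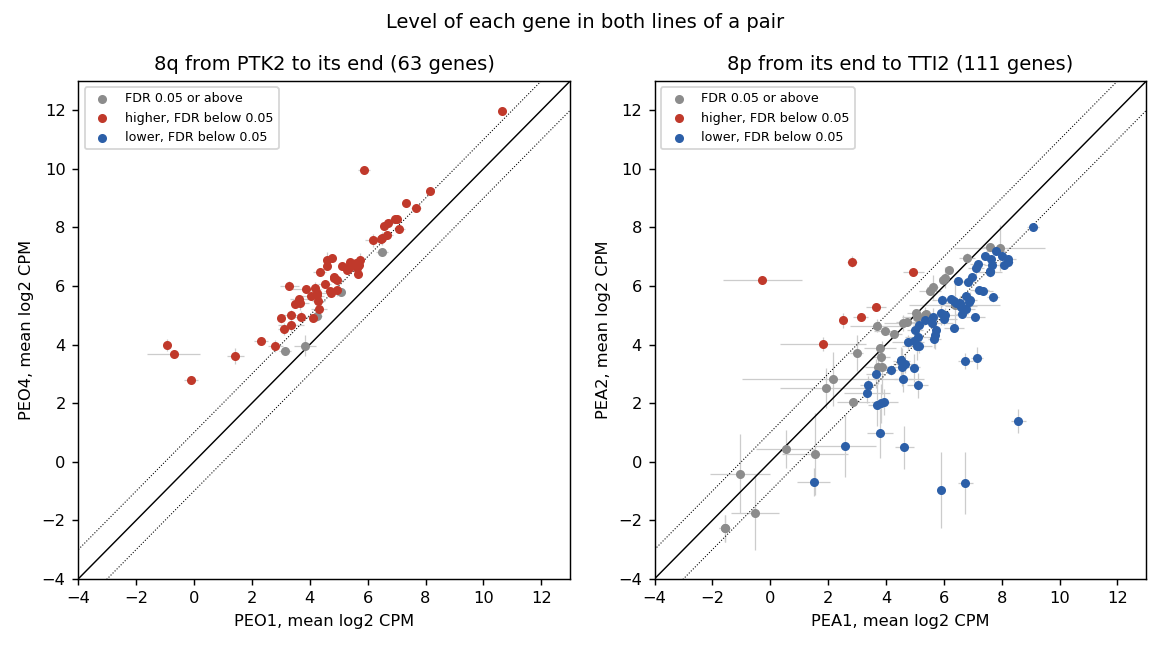
Mean log2 CPM of each gene in the resistant line (y axis) against the sensitive line (x axis), with bars for the SD of 3 libraries, a solid line of equality and dotted lines 1 log2 unit away, for the 63 genes of 8q from PTK2 to the end in the PEO pair (left) and the 111 genes of 8p up to TTI2 in the PEA pair (right). On the left 58 genes rose and 0 fell, in a band near the upper dotted line. On the right 72 fell and 7 rose, and single genes such as LZTS1, CLU and SCARA3 lie far below the band.

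MYC, the oncogene most often named for gains of 8q24 (chr8:128747680-128755197, plus strand), lies before this segment. It had log2 levels of 7.62, 7.74 and 7.79 in PEO1 and 7.73, 7.94 and 8.05 in PEO4, and the libraries overlapped. Its log2FC was 0.19 ± 0.10 in the PEO pair (limma FDR = 0.155), 0.16 ± 0.10 in the PEA pair (limma FDR = 0.198) and -0.11 ± 0.10 in the A2780 pair (limma FDR = 0.428). MYC passed the test in none of the 3 pairs. PVT1, the long noncoding RNA next to MYC, rose by 0.56 in the PEO pair and fell by 0.80 in the PEA pair and by 0.53 in the A2780 pair. Of the 24 genes measured on the list for the MYC segment of 8q24, 10 rose and 1 fell in the PEO pair. These shares were 41.7% and 4.17%, against 19.6% and 21.9% of all genes. In the PEA pair 9 rose and 9 fell, or 37.5% each against 32.5% and 29.4%. In the A2780 pair 9 rose and 2 fell, or 37.5% and 8.33% against 22.2% and 17.7%. In the PEO pair 5 of the 10 lay from TRAPPC9 outward. From RAD21 to ST3GAL1, 49 consecutive genes around MYC, the PEO pair shifted by 0.16, with 7 up and 3 down. That is 14.3% and 6.12%, against 19.6% and 21.9% of all genes.

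The 133 genes of middle 8q from ASPH to UTP23 shifted by 0.52, -0.38 and -0.03 in the PEO, PEA and A2780 pairs. In the PEO pair 60 rose and 12 fell, or 45.1% and 9.02% against 19.6% and 21.9% of all genes. In the PEA pair 20 rose and 62 fell, or 15% and 46.6% against 32.5% and 29.4%. Of the 15 genes on the list of 8q21 to q23 genes reported as gained in cancers, 9 rose and 0 fell in the PEO pair, with a median log2FC of 0.50. Thus 60% rose, where 19.6% of all genes rose and 21.9% fell. E2F5, a cell cycle transcription factor, went from 2.34, 2.56 and 2.65 to 3.88, 4.34 and 4.36, a log2FC of 1.67. EIF3E, a translation initiation factor subunit, went from 9.07, 9.02 and 9.08 to 9.55, 9.74 and 9.68, a log2FC of 0.60. PABPC1, the poly(A) binding protein, rose by 0.47, LAPTM4B, a lysosomal membrane protein, by 0.55 and MTDH by 0.34. Apart from E2F5, the rises named here were below 1 on the log2 scale. Of the same 15, 3 rose and 5 fell between PEA1 and PEA2, or 20% and 33.3% against 32.5% and 29.4% of all genes. Between A2780 and CP70 2 rose and 3 fell, or 13.3% and 20% against 22.2% and 17.7%.

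Single genes of 8q moved far more than their surroundings in PEO4. ZFPM2, a cofactor of GATA factors (chr8:105602961-106816767, plus strand), had at most 3 reads in every PEO1 library and log2 levels of 6.85, 6.98 and 6.79 in PEO4, at least 140-fold higher. In the PEA pair it went the other way, from 4.21, 4.95 and 4.80 in PEA1 to at most 3 reads in PEA2, at least 19.9-fold lower. ZBTB10, a transcriptional repressor, rose by 2.89 and IMPA1, an inositol monophosphatase, by 1.58 in the PEO pair.

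RIMS2, a presynaptic scaffold, fell from 6.0, 5.98 and 5.75 to 1.56, 1.5 and 1.40, a log2FC of -4.42. NCALD, a neuronal calcium sensor, fell by 2.76, MATN2, a matrix protein, by 2.48 and PKIA, an inhibitor of protein kinase A, by 2.07. EXT1, a polymerase of heparan sulfate (chr8:118806729-119124065, minus strand), fell from 7.93, 7.91 and 8.16 to 6.21, 6.17 and 6.41 in the PEO pair, a log2FC of -1.74, and by 2.61 in the PEA pair. TRPS1, a GATA-type repressor, rose by 1.41 in the PEO pair and by 1.58 in the A2780 pair, and fell by 2.85 in the PEA pair.

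On 8p the PEO shift was close to 0. The 10 consecutive genes from NAT1 to DMTN had log2FCs below 0, and 6 of them fell. LPL, lipoprotein lipase, was among them and went from 4.54, 4.48 and 4.31 in PEO1 to at most 3 reads in PEO4, at least 20.0-fold lower. PSD3 fell by 3.16, SOX7, an endothelial and progenitor transcription factor, by 2.73, PNOC, the precursor of nociceptin, by 2.69 and FAM167A was at least 3.72-fold lower. TEX15, a gene of male meiosis, fell from 5.30, 5.02 and 5.28 to 0.64, 1.32 and 2.56. PLAT, tissue plasminogen activator, rose by 3.61. VPS37A, an ESCRT subunit, was the lower middle gene of the lowest PEO window, at -0.36, and did not pass the test. The median log2FC of that window was -0.28.

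In the PEA pair most of 8p was lower in PEA2. From FBXO25, the first member, to TTI2, 72 of 111 genes fell and 7 rose, and the shift was -0.87. Thus 64.9% fell and 6.31% rose, against 29.4% and 32.5% of all genes. The PEA1 libraries stood at 0.05, 0.63 and 0.60 and the PEA2 libraries at -0.53, -0.42 and -0.35. The 41 remaining genes of 8p, from LSM12P1 to HGSNAT, had 17 up and 8 down, or 41.5% and 19.5%, with a shift of 0.21 and overlapping libraries. Over genes with a mean log2 level above 4 the 2 stretches stood at -1.01 and 0.15. This boundary, too, was set after the values were seen. The same 111 genes shifted by 0.25 in the A2780 pair and by -0.08 in the PEO pair.

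MAK16, a ribosome biogenesis factor just before the boundary, fell from 5.96, 6.81 and 6.99 to 5.13, 5.16 and 5.62, a log2FC of -1.28. TTI2, which overlaps it on the opposite strand, was at -0.48 and did not pass the test. Past the boundary ERLIN2, a protein of the endoplasmic reticulum, had 6.93, 7.16 and 7.11 in PEA1 and 7.25, 7.11 and 7.10 in PEA2, overlapping. The longest run of genes with log2FCs below 0 was the 15 from FAM160B2 to TNFRSF10D, of which 13 fell, and the median log2FC of the 15 was -0.82.

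Of the 18 genes measured among candidate tumour suppressors of 8p, 13 fell and 1 rose in the PEA pair, with a median log2FC of -1.05. These shares were 72.2% and 5.56%, against 29.4% and 32.5% of all genes, while 52.6% of all 8p members fell. ARHGEF10, a guanine nucleotide exchange factor near the end of the arm (chr8:1772092-1906807, plus strand), fell from 6.38, 6.69 and 6.78 to 4.99, 4.98 and 5.20, a log2FC of -1.56 ± 0.13 (limma FDR = 2.9e-09). TUSC3, a subunit of the oligosaccharyltransferase, fell from 6.68, 6.93 and 7.01 to 5.25, 5.48 and 5.61, a log2FC of -1.43. PINX1, a telomerase inhibitor, fell by 1.91, MCPH1, a microcephaly and DNA damage gene, by 0.87 and PPP2R2A, a regulatory subunit of protein phosphatase 2A, by 0.67. Neither BNIP3L, a mitophagy receptor, at -0.26, nor WRN, the Werner syndrome helicase, at -0.15, passed the test. In the same list 4 genes rose and 3 fell in the A2780 pair, or 22.2% and 16.7%, near the 22.2% and 17.7% of all genes. In the PEO pair 3 rose and 6 fell, or 16.7% and 33.3% against 19.6% and 21.9%. CLN8, a lysosomal disease gene that is not on this list, fell by 1.77 in the PEA pair.

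The 3 measured receptors of the death ligand TRAIL had log2FCs below 1 in either direction. TNFRSF10B fell by 0.72 and TNFRSF10D, a decoy receptor, by 0.47 in the PEA pair, and they fell by 0.55 and 0.50 in the A2780 pair. TNFRSF10A was at 0.02 in the PEA pair, did not pass the test in the PEO pair at -0.68, and had at most 3 reads in every library of A2780 and CP70. Among genes of mitosis and cohesion, PBK, a mitotic kinase, fell by 2.14 and ESCO2, a cohesin acetyltransferase, by 1.55 in the PEA pair. These 2 genes overlap on opposite strands.

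The largest changes of 8p in PEA2 went both ways. LZTS1, a leucine zipper tumour suppressor candidate, went from 6.46, 6.79 and 6.97 to at most 3 reads, at least 84.2-fold lower. CLU, the chaperone clusterin (chr8:27454434-27472217, minus strand), fell from 8.29, 8.78 and 8.66 in PEA1 to 1.26, 1.85 and 1.04 in PEA2, a log2FC of -7.19 ± 0.21 (limma FDR = 6.39e-16). In the PEO pair CLU rose from 1.78, 2.47 and 2.38 to 7.98, 8.42 and 8.41, a log2FC of 6.06, and in the A2780 pair it rose from 5.04, 4.93 and 4.78 to 6.57, 6.48 and 6.40, a log2FC of 1.56. The PEA and PEO pairs thus differed by -13.25 (limma FDR = 4.11e-17), with no overlap of the lines in any pair.

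SCARA3, a scavenger receptor gene next to CLU, did the same. It was at least 46.4-fold lower in PEA2, and it rose by 4.60 in the PEO pair and by 2.87 in the A2780 pair. ENSG00000272327, a transcript inside the NRG1 gene, fell by 4.14 in PEA2. MTUS1, a mitochondrial and microtubule tumour suppressor candidate, rose in the PEA pair from 2.63, 2.90 and 2.96 to 6.61, 6.88 and 6.98, while SLC7A2 and PCM1 near it fell by 0.49 and 1.39. FAM167A was at least 36.6-fold higher in PEA2.

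Of the 23 genes measured on the list for the 8p11 to p12 segment amplified in breast cancer, 10 rose and 5 fell in the PEA pair. That is 43.5% and 21.7%, against 32.5% and 29.4% of all genes. In the PEO pair 3 rose and 8 fell, 13% and 34.8% against 19.6% and 21.9%. In the A2780 pair 4 rose and 1 fell, 17.4% and 4.35% against 22.2% and 17.7%. RAB11FIP1, a recycling endosome protein, rose by 1.54 in the PEA pair. FGFR1, a fibroblast growth factor receptor, fell from 6.69, 7.11 and 7.16 to 4.36, 4.17 and 4.25 in the PEA pair, a log2FC of -2.73, and by 2.19 in the PEO pair. KAT6A, a histone acetyltransferase, rose by 0.70 and IKBKB, a kinase of the NF-kB pathway, by 0.36 in the PEA pair. PLAT, IDO1 and C8orf4, which are not on this list, stood far above their neighbours in PEA2. PLAT rose from 4.52, 5.61 and 5.67 to 10.43, 10.38 and 10.47. IDO1, which degrades tryptophan, and C8orf4 had at most 3 reads in every PEA1 library and were at least 17.5-fold and 18.5-fold higher in PEA2.

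On 8q of the PEA pair ESRP1, the epithelial splicing regulator (chr8:95653302-95719694, plus strand), had at most 3 reads in every PEA1 library and 8.46, 8.41 and 8.25 in PEA2, at least 165-fold higher. GRHL2, a transcription factor of epithelial junctions, was at least 22.6-fold higher, and MAL2, an apical transport protein, rose from 2.45, 3.47 and 2.85 to 10.24, 10.05 and 10.00. CA8, a carbonic anhydrase-related protein, was at least 66.1-fold higher. Of the epithelial markers given above, CDH1, MUC16 and MSLN were above 3 reads throughout in PEA2 and not in PEA1, while PAX8 had mean log2 levels of 8.35 in PEA1 and 8.33 in PEA2. Of the fibroblast markers, DCN and LUM had 0 reads in every PEA1 and PEA2 library, and COL1A1 alone made up the summed level of 366 to 447 CPM in PEA1 and 3.17 to 4.12 in PEA2. Its part in these values was not tested. KHDRBS3, an RNA-binding protein, and KCNQ3, a potassium channel, were at least 4.54-fold and 2.39-fold higher. PHF20L1, the lower middle gene of the same window, was at 0.28 and overlapped, where the median log2FC of the window was 0.81.

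PXDNL, a peroxidasin-like protein, was at least 17.9-fold lower in PEA2 and CRISPLD1 at least 29.7-fold lower. At the very end of 8q, the 11 genes from TONSL to C8orf33 had 0 up and 6 down in the PEA pair, with a shift of -0.65. Thus 54.5% fell, against 29.4% of all genes, while 32.5% of all genes rose. This stretch was bounded after the values were seen, and the 63 genes from PTK2 to the end shifted by 0.03. RECQL4 fell there from 4.73, 4.39 and 4.80 to 3.30, 3.54 and 2.92, a log2FC of -1.39, whereas in PEO4 it rose from 4.99, 4.77 and 4.75 to 6.43, 6.12 and 6.23. Its difference between the PEA and PEO pairs was -2.81 (limma FDR = 2.42e-08). TONSL differed between them by -2.59 (limma FDR = 1.61e-08).

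Of the 21 chromosome 8 genes listed for DNA repair and replication, 16 fell and 1 rose in the PEA pair, with a median log2FC of -0.62. These shares were 76.2% and 4.76%, against 29.4% and 32.5% of all genes. Of all chromosome 8 members, 42% fell and 22% rose in this pair. TERF1, a telomere protein, fell by 1.87 and NBN, of the MRE11 complex, from 7.87, 8.35 and 7.87 to 7.09, 7.05 and 6.87, a log2FC of -1.02. The gene that rose was POLB, the base excision repair polymerase, at 0.98, which lies past the 8p boundary. In the PEO pair 5 rose and 4 fell, or 23.8% and 19%, near the 19.6% and 21.9% of all genes. The 5 were NBN at 0.72, RRM2B, a ribonucleotide reductase subunit, at 0.60, TOP1MT, TONSL and RECQL4, all on 8q. The 4 were ESCO2 at -0.50, POLB at -0.66, PRKDC, the DNA-dependent protein kinase, at -0.55 and MCM4, of the replicative helicase, at -0.69. In the A2780 pair 0 rose and 7 fell, or 33.3% against 17.7% of all genes, among them MCM4 at -0.70.

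The arm shifts of the A2780 pair were small, but a cluster of neighbouring 8p genes fell together. From MICU3 to PCM1, the longest run of genes below 0 in this pair, 7 of 10 genes fell, all by more than 2. Of all genes, 17.7% fell in this pair. SLC7A2, a cationic amino acid transporter (chr8:17354597-17428082, plus strand), fell from 9.98, 10.17 and 10.09 in A2780 to 5.63, 5.39 and 5.62 in CP70, a log2FC of -4.54 ± 0.15 (limma FDR = 3.57e-15). MTUS1 fell from 8.34, 8.64 and 8.44 to 4.0, 3.69 and 3.76, a log2FC of -4.65. PCM1, a centriolar satellite protein, fell from 10.40, 10.44 and 10.50 to 8.12, 8.21 and 8.22, a log2FC of -2.27. In each of these genes the lines were far apart.

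ZDHHC2, a palmitoyltransferase, fell by 3.32, MTMR7, a lipid phosphatase, by 5.17 and PDGFRL by 2.83, and FGL1, a liver protein related to fibrinogen, was at least 18.7-fold lower. The other genes of the run were MICU3 at -0.18, CNOT7 at -0.27 and VPS37A at -0.51, which did not pass the test. The next gene, ASAH1, an acid ceramidase, rose by 0.76. In the same 10 genes the PEO pair had 2 up and 2 down, or 20% each against 19.6% and 21.9% of all genes. The PEA pair had 1 up and 6 down, or 10% and 60% against 32.5% and 29.4%. Genes that overlap on opposite strands in this run are MTUS1 with PDGFRL and MTMR7 with VPS37A.

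Elsewhere in CP70 some short windows also shifted relative to all genes. In windows of 5 Mb, the 9 genes from 60 to 65 Mb stood at 1.53 and the 10 from 10 to 15 Mb at 0.85. The 8 genes from 105 to 110 Mb stood at -0.83. Single genes changed as well. On 8p DLC1, a GTPase-activating protein, was at least 1.94-fold higher, EPHX2, the soluble epoxide hydrolase, at least 21.2-fold lower, and LONRF1 rose by 2.92. On 8q SDC2, a heparan sulfate proteoglycan, fell from 8.37, 8.53 and 8.48 to 2.00, 1.57 and 1.60, a log2FC of -6.74. SNAI2, a repressor of epithelial genes, fell from 5.17, 5.89 and 5.57 to 0.30, 1.17 and 0.53, CA2, a carbonic anhydrase, fell by 4.06 and NDRG1, a stress-responsive gene, by 4.31. ENSG00000254615, a gene with no symbol in the table, was at least 27.3-fold lower.

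FAM83H, a keratin-associated protein, rose in CP70 from 2.72, 2.09 and 1.54 to 5.92, 5.83 and 5.88, and it rose by 2.35 in the PEA pair and by 0.98 in the PEO pair. An antisense gene, FAM83H-AS1, lies opposite to it. PARP10 rose by 2.74, JPH1, a junctophilin, by 2.79 and MYBL1, a MYB-family factor, was at least 12.5-fold higher. The lowest window of this pair, from 80 to 90 Mb at -0.35, had overlapping libraries and turned to 0.00034 over its 11 genes with a mean log2 level above 4. The highest was the window from 70 to 80 Mb, at 0.42. These 2 windows held LRRCC1, at least 4.35-fold higher, ATP6V0D2, at least 30.3-fold lower, and ZFHX4, at least 12-fold higher.

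ASPH, which hydroxylates aspartate and asparagine residues (chr8:62413115-62627199, minus strand), rose in every pair. It went from 7.36, 7.41 and 7.41 to 9.63, 9.72 and 9.77 in the A2780 pair, from 7.81, 8.01 and 7.61 to 10.06, 10.00 and 9.89 in the PEA pair, and from 6.94, 6.88 and 6.72 to 8.08, 8.12 and 7.95 in the PEO pair. The log2FCs were 2.32, 2.18 and 1.20, and the lines did not overlap. The A2780 and PEA pairs differed by 0.14 ± 0.14 (SE), and the PEO pair stood 1.11 below the A2780 pair (limma FDR = 1.27e-06). ASPH was named after its values were seen, and FAM83H, given above, also rose in every pair.

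Neighbouring genes resembled each other most in the PEO pair. Over 401 pairs of adjacent members with start sites more than 5 kb apart, the Spearman correlation of their log2FCs was 0.22, 0.25 and 0.39 in the A2780, PEA and PEO pairs. On the 22 other chromosomes with at least 100 genes, the median correlation was 0.16, 0.23 and 0.20. Only 1 of them stood above chromosome 8 in the PEO pair, compared with 10 in the PEA pair and 5 in the A2780 pair. All these points share the same libraries, and the correlation describes them without a test.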

How the data were processed

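RNA-seq was analysed for 18 libraries, 3 for each of 6 lines. Per the submitters' processing notes the authors used Bowtie2, featureCounts, limma and hg19, and they deposited log2 CPM values with 0.5 reads added for 12853 genes. The filter that chose these genes and the strand setting of the counting are not given in the sources used here. Whole reads were recovered for 100% of values (within 0.02 reads) and gave the depth and the floor of 3 reads (counting error alone). Where a line had at most 3 reads in every library, the fold was computed against the mean of 3 reads per library, as a lower bound.

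The log2 values were fitted with limma 3.58.1 in R 4.3.3 with a mean for each line over all 18 libraries and a trend of the variance, as the study compared lines within pairs. Differences between pairs were contrasts of this fit. Medians by arm and by window were described without a test. Tables and figures used Python with pandas, scipy and matplotlib. The fit was tested on simulated data. GENCODE 44 on GRCh37 matched 430 of 436 members by identifier, and all 430 start sites lay in the annotated gene or within 10 kb of it. Of these, 22 were pseudogenes, whose reads could belong to their parent genes.

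The members and gene lists were chosen with earlier results of these data known. Named genes were measured members of these lists, the 4 highest and 4 lowest called genes per arm and pair with no overlap between lines and a mean log2 level above 1 in the pair, genes called the same way in every pair, and the gene at the median and the 2 largest changes of the 2 extreme windows in each pair. In a window with an even number of genes, the lower middle gene stood for the median. Other genes named beside a boundary, a run or a failed test were chosen after their values were seen, and so was every boundary of a stretch given by gene names. No sequences are shown, and results for some genes are not reported here.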

Additional observations from a re-analysis of the deposited data

Results flagged for a closer look

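Of 114 genes compared between pairs, 67 differed between at least 1 combination of 2 pairs by more than 2 on the log2 scale (limma contrast, FDR below 0.05), and 30 of them passed the test in opposite directions in the pairs compared. These 30 are given as the largest difference of log2FCs, first pair minus second. Many of the 114 genes were named for large changes in a pair, so both counts follow in part from that choice. The share over all genes is not given here.

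Between the PEA and PEO pairs the difference was -13.3 for CLU, -2.09 for CPSF1, -2.59 for TONSL, -2.81 for RECQL4, -2.77 for IMPA1, -2.38 for CLN8 and -2.17 for TUSC3. For ZFPM2, at -14.9, SCARA3, at -11.5, LPL, at 8.54, FAM167A, at 9.96, CRISPLD1, at -5.91, and KCNQ3, at 5.87, a line had at most 3 reads per library, so the size depends on the 0.5 reads added.

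Between the A2780 and PEO pairs the difference was -2.59 for TOP1MT, -6.26 for SLC39A4, -3.50 for ZBTB10, 6.17 for RIMS2, 3.95 for MATN2, 4.58 for PSD3, -2.64 for PCM1 and -5.90 for SLC7A2. For ENSG00000254615, at -7.53, a line was at the floor. Between the A2780 and PEA pairs it was 4.44 for TRPS1, 2.14 for ARHGEF10, -8.65 for MTUS1, 2.51 for PBK, -5.42 for CA2 and -5.92 for NDRG1, and, with a line at the floor, 4.98 for MYBL1 and 10.3 for ZFHX4.

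For regions, each resistant line stood wholly on opposite sides of its sensitive line in the pairs compared, and the difference was not tested. The 8p shift of the A2780 pair was 0.78 above that of the PEA pair and 0.22 above that of the PEO pair. The first window of 8p stood 1.38 and the window from 20 to 30 Mb 1.07 higher in the A2780 pair than in the PEA pair. The window from 90 to 100 Mb differed by -1.0 between the PEA and PEO pairs, and that from 100 to 110 Mb by -0.72 between the A2780 and PEO pairs.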

How the results depend on the processing

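Of 135 alternative values of the counts, the arm medians and the extreme windows, 115 kept their direction and stayed close to the value reported. With a threshold of 1 on log2FC, 90, 160 and 119 genes were called in the A2780, PEA and PEO pairs, and with a mean log2 level above 2, 43 (PEA) and 23 (PEO) were. The A2780 8p shift was 0.062 with a mean log2 level above 4, 0.12 after quantile normalization, -0.0079 with the mean in place of the median, 0.25 without 38 to 52 Mb, and 0.11 without genes at the floor, an alternative chosen after seeing the data. The A2780 8q shift was 0.00034 with a mean log2 level above 4, -0.13 with the mean and -0.073 over every gene of the chromosome. With the mean, the PEO 8p shift was -0.17. The PEO 8q shift was 0.57 with a mean log2 level above 2, 0.57 after quantile normalization and 0.58 with the mean. In windows of 5 Mb the A2780 extremes were -0.83 and 1.53, from 8 and 9 genes, and the lowest PEO window was -0.51. With a mean log2 level above 4, the A2780 window from 80 to 90 Mb turned to 0.00034 (11 genes) and the PEA window from 130 to 140 Mb to -0.14 (8 genes). The cause of these changes was not tested. Quantile normalization moved the median of all genes in the PEA pair from 0.01 to -0.10.

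Leaving out 1 library gave 47 to 52, 66 to 72 and 38 to 41 called genes in the 3 pairs. Higher genes numbered 88 to 107, 85 to 113 and 135 to 162, and lower genes 52 to 75, 150 to 193 and 49 to 65. The 8p shifts ranged from 0.12 to 0.18, from -0.76 to -0.47 and from -0.10 to -0.049, and the 8q shifts from -0.085 to -0.031, from -0.26 to -0.0032 and from 0.52 to 0.56. The A2780 8q extreme of -0.085 came without A2780 replicate 1.

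Same-numbered libraries did not deviate together (correlations from -0.035 to 0.048 over 12853 genes), so the numbers were not taken as pairs. With a replicate block 48, 67 and 41 genes were called, 101, 97 and 154 were higher and 67, 183 and 61 lower. No named gene changed direction while past the test under any alternative, but 29 values in 21 gene-and-pair results no longer passed it under another setting and 105 in 35 without 1 library, while 72 and 54 values newly passed it. Depth limits genes near 3 reads, most of all in PEA1.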
